A study of Mus musculus with 3 samples.

Results

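The mitochondrial ribosomal protein genes were taken from the count table as every gene of protein-coding biotype whose symbol begins with Mrpl or Mrps followed by a digit, with no use of measured values. The rule found 78 of the 56748 genes in the table, 49 with Mrpl symbols, given to large-subunit proteins, and 29 with Mrps symbols, given mostly to small-subunit proteins. RNAseq was done on adult cardiomyocytes (ACMs) isolated from wild-type mice aged 8 to 10 weeks, of both sexes by the study's methods, and kept in serum-free M199 medium. For 16 h the cells received vehicle (0.1% BSA), human interleukin-6 (IL-6) at 10 ng/mL or mouse oncostatin M (OSM) at 10 ng/mL. BSA was at 0.1% in all 3 groups. Each condition was 1 library made from pooled RNA, so no replicate shows how far untreated libraries differ from each other. The series asked which genes rise when JAK1 is activated through the OSM receptor. The comparison of OSM with vehicle gives the difference with OSM, and JAK1 itself was not altered in these wild-type cells.

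The mitochondrial ribosome sits in the mitochondrial matrix and translates the mRNAs of the mitochondrial genome, which encode core subunits of the respiratory chain and of ATP synthase. Its ribosomal RNAs are transcribed from mitochondrial DNA, whereas its proteins are encoded in the nucleus, made on cytosolic ribosomes and imported. Cardiomyocytes are packed with mitochondria and draw most of their ATP from oxidative phosphorylation, and inherited defects of several of these proteins cause cardiomyopathy in children. Mrps36 meets the naming rule and was kept, although its protein is now known as a subunit of the alpha-ketoglutarate dehydrogenase complex. Mrps18a and Mrps30 carry Mrps symbols although structures place their proteins in the large subunit, so the groups below are named by symbol.

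The libraries held 24939980 counted fragments with vehicle, 26362446 with IL-6 and 30773001 with OSM, at which 3 counts, the limit that a count of 0 allows, equal 0.120, 0.114 and 0.0975 CPM (counts scaled to a common library total). Intervals and limits given here cover counting error alone, and they compare libraries, not conditions. The 7 cardiomyocyte markers chosen for the label summed to 667346 counts with vehicle, 723105 with IL-6 and 925946 with OSM, so the label of the cells had its defining genes in every library. The most abundant of these by count, Myh6, the main myosin heavy chain of adult mouse heart muscle, had 187212, 200746 and 215067 counts in that order. Ryr2, the calcium release channel of the sarcoplasmic reticulum, had 22606 and 23555 counts with vehicle and IL-6 and 9264 with OSM.

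Markers of other heart cells were scarce. The 5 fibroblast markers summed to 113 counts with vehicle, 111 with IL-6 and 171 with OSM, led by Dcn (49, 48 and 131), while Col1a1 was at 6, 0 and 0 and Postn at 4, 4 and 0. The 4 endothelial markers summed to 744, 848 and 958, led by Cdh5 at 280, 273 and 332. The 4 smooth muscle and pericyte markers summed to 792, 823 and 1054, of which Acta2 gave 677, 721 and 935. The 4 macrophage markers summed to 577, 614 and 1634, with Cd68, a lysosomal glycoprotein, at 382, 448 and 1419. Csf1r was present in every library, at 187, 166 and 209. Ptprc was at 0 in all 3 libraries and Adgre1 at 8, 0 and 6, so the higher sum with OSM came mostly from Cd68. The part of other cell types in the values below was not tested, and in bulk RNA a change in the number of cells and a change in RNA per cell cannot be told apart.

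Mitochondrial ribosomal protein mRNAs were present in every library at low to moderate level. Together they took 97179 counts with vehicle, or 0.390% of the library (exact 95% binomial interval 0.387% to 0.392%). With IL-6 they took 104303 counts, or 0.396% (0.393% to 0.398%). With OSM they took 154002 counts, or 0.500% (0.498% to 0.503%). The share was thus highest with OSM, and its interval lay above both others. Leaving out counts of the mitochondrial genome gave 0.472% with vehicle, 0.472% with IL-6 and 0.579% with OSM.

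Levels between genes were compared as deposited FPKM, fragments scaled for summed exon length in kilobases and for library size. With vehicle, the 77 members with counts ran from 4.43 FPKM for Mrpl48 to 93.7 FPKM for Mrps23, a ratio of 21.1, although the proteins sit in 1 particle. The median was 18.9 FPKM with vehicle, 17.0 with IL-6 and 23.2 with OSM. Mrpl genes had a median of 22.3 FPKM with vehicle and Mrps genes one of 12.0. The scale matters for single genes, because summed exon length counts every annotated isoform. Per kilobase of the canonical transcript alone, vehicle levels ran from 2.14 for Mrps18c to 267 for Mrpl42, a ratio of 125.

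Among Mrpl genes, the highest vehicle level was that of Mrpl12, a protein of the stalk that recruits translation factors, at 90.9 FPKM, with 92.1 with IL-6 and 139 with OSM. Mrpl28 followed at 62.0, 56.2 and 94.3 FPKM. Mrpl2, a core protein close to the peptidyl transferase centre, had 57.0, 63.3 and 93.5 FPKM. Mrpl42 had 55.5, 51.6 and 72.2 FPKM, and Mrpl34 had 44.4, 44.9 and 62.6. All 5 of these were highest with OSM. At the other end were Mrpl48 with 4.43, 3.93 and 6.36 FPKM and Mrpl19 with 4.53, 4.29 and 5.03. Mrpl33 had 4.79, 4.64 and 9.42 FPKM, Mrpl32 had 6.18, 5.55 and 7.85, and Mrpl47 had 6.55, 6.71 and 6.65. Mrpl47 thus kept nearly one level across the libraries, while Mrpl33 stood out with OSM.

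Among Mrps genes, Mrps23 led with 93.7 FPKM with vehicle, 93.0 with IL-6 and 117 with OSM. Mrps21 had 90.1, 75.2 and 130 FPKM. A clear step separated these from Mrps24 with 36.3, 37.3 and 62.4 FPKM, Mrps7 with 35.9, 38.8 and 49.9, and Mrps12 with 35.7, 32.0 and 53.9. Mrps24, Mrps7 and Mrps12 have counterparts in the bacterial small subunit, and Mrps12 belongs to the decoding centre. The lowest levels of Mrps genes were those of Mrps10 (4.49, 3.81 and 4.91 FPKM), Mrps30 (4.84, 4.71 and 5.81), Mrps5 (4.94, 5.97 and 6.36), Mrps35 (5.01, 4.74 and 5.89) and Mrps25 (5.30, 4.55 and 6.66). These low values again lay highest with OSM. The plot of levels by gene and library shows the order within each symbol group.

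**Figure D1:**
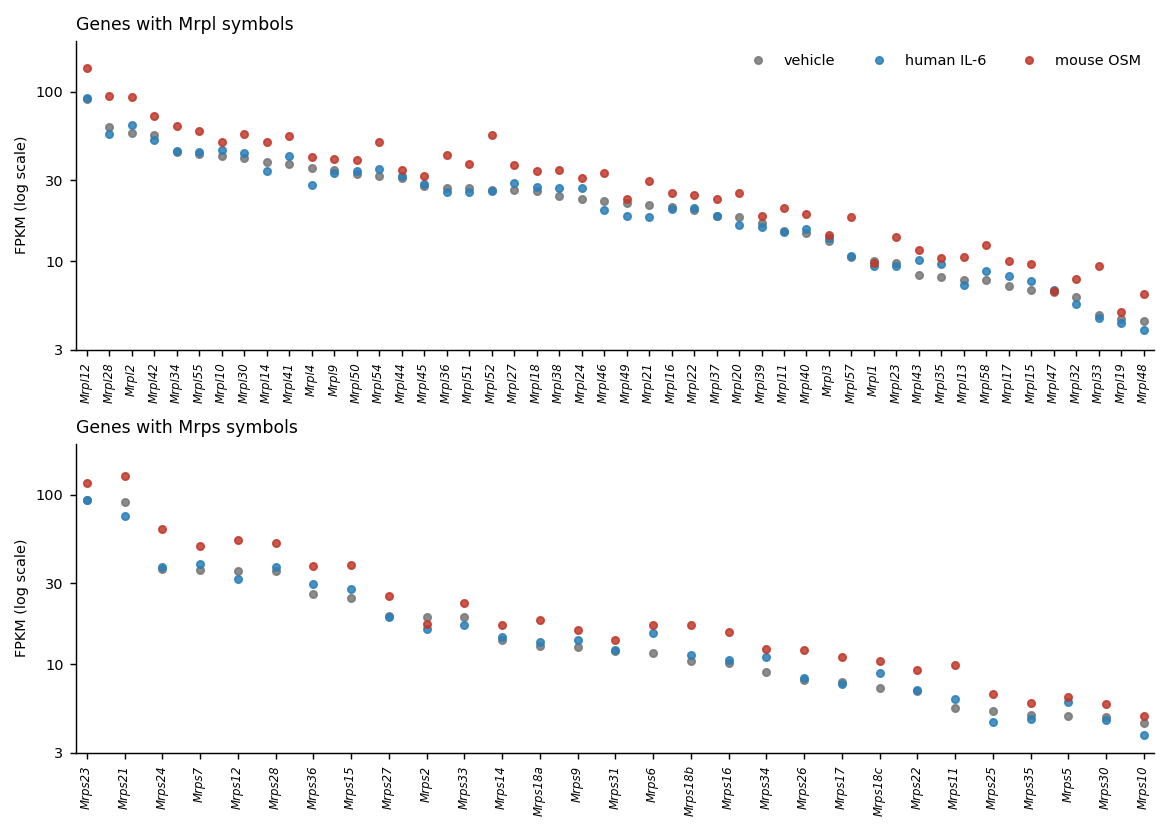
FPKM (log axis) of the 77 mitochondrial ribosomal protein genes with counts, by gene, with Mrpl and Mrps symbols in separate panels and 1 point for each of the vehicle, IL-6 and OSM libraries. Levels with vehicle spanned 4.43 to 93.7 FPKM, and the OSM points lay above the others for most genes.

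Mrpl53 was the 1 member without counts, with 0 in all 3 libraries, so no fold change could be given for it. Its protein lies near the stalk of the large subunit. The annotated span of Mrpl53 (GRCm39, chr6:83086021-83086920, plus strand) lies wholly inside that of the same-strand gene Gm42688 (chr6:83078598-83086920), which had 6 counts with vehicle, 9 with IL-6 and 4 with OSM. It was the only member whose span lay inside that of another gene on its strand. A count of 0 there does not show absence of the mRNA, and the part of the containing gene in it was not tested. GENCODE M39, which does not list Gm42688, gives Mrpl53 no exonic overlap on its own strand and 10.7% on the opposite strand, with Ccdc142os (10, 2 and 19 counts).

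With OSM, nearly the whole family was modestly higher than with vehicle. A gene is called higher or lower below when the 95% counting interval of its log2 fold change lay wholly above or below 0, and past 2-fold when the whole interval lay beyond 2-fold. Of 77 members compared, 72 were higher, 1 was lower and 4 were within counting error. That is 93.5% of members higher, where 33.4% of all 15537 genes compared were higher and 33.1% were lower. None of the members passed 2-fold, compared with 9.17% of all genes. In the median, members had a log2 fold change of 0.46 (interquartile range 0.28 to 0.55, full range -0.13 to 1.07), against 0.00 for all genes (-0.51 to 0.44). Their summed counts gave 0.42 (95% interval 0.41 to 0.43). Less the median of genes of similar length, as set out below, 44 members were higher and 8 were lower.

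Both symbol groups showed the shift. Of Mrpl genes 44 of 48 were higher and none was lower, with a median of 0.45. Of Mrps genes 28 of 29 were higher and 1 was lower, with a median of 0.47. The 4758 protein-coding genes inside both the length and the FPKM range of the members had a median of 0.12, with 50.6% of them higher. The plot of fold changes by gene shows that most members lay above 0 with OSM and on both sides of 0 with IL-6.

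**Figure D2:**
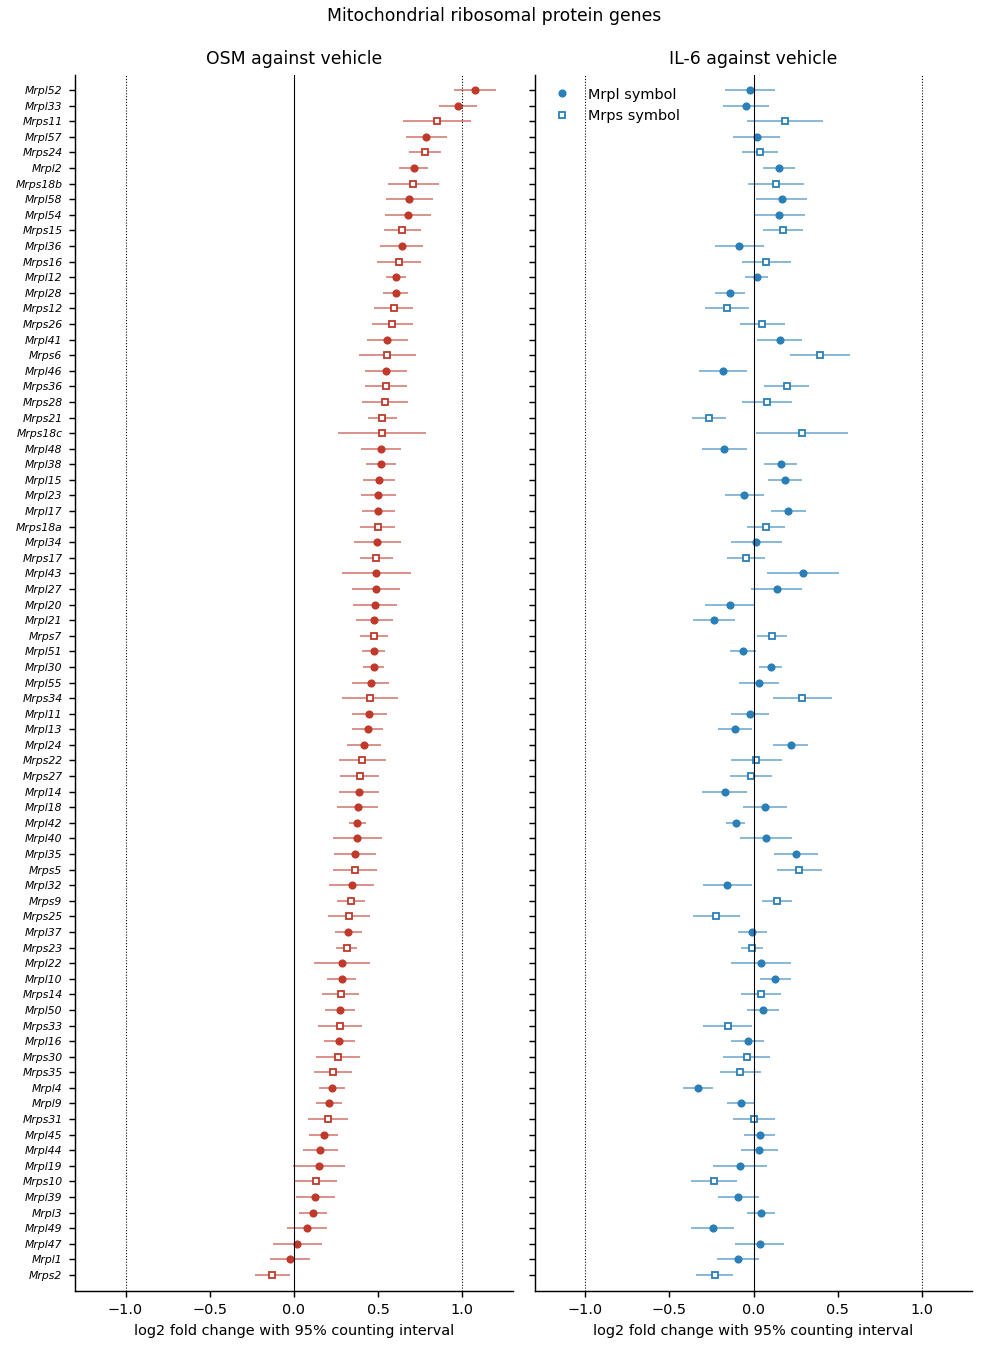
Log2 fold change of each of the 77 compared members (horizontal axis, bars for the 95% counting interval) for OSM against vehicle and IL-6 against vehicle, which share the vehicle library; dotted lines mark 2-fold. With OSM the points ran from -0.13 to 1.07 around a median of 0.46, and with IL-6 from -0.33 to 0.40 around 0.02.

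The members with the highest fold changes came from both subunits. Mrpl52 (ENSMUSG00000010406, GRCm39 chr14:54664366-54667213, plus strand), a large-subunit protein without a bacterial counterpart, had 741 counts with vehicle, 782 with IL-6 and 1844 with OSM. The OSM value was 1.07 on the log2 scale (0.95 to 1.20), the only member value above 1, with an interval that included 1. Mrpl33 (ENSMUSG00000106918, chr5:31754279-31821728, plus strand), a small protein with a bacterial counterpart, had 887, 922 and 2061 counts and a value of 0.97 (0.86 to 1.09). In both genes the vehicle and IL-6 libraries lay close together and the OSM library stood apart. Mrps11 (ENSMUSG00000030611, chr7:78432867-78442737, plus strand), of the platform of the small subunit, had 301, 367 and 641 counts and a value of 0.85 (0.65 to 1.05). Mrpl57 (ENSMUSG00000021967, chr14:58063691-58066753, plus strand), a protein found only in mitochondrial ribosomes, had 789, 856 and 1610 counts and a value of 0.79 (0.66 to 0.91). Mrps24 (ENSMUSG00000020477, chr11:5653983-5665680, minus strand), at the mRNA entry side of the small subunit, had 1346, 1480 and 2733 counts and a value of 0.78 (0.69 to 0.88). These 3 were likewise highest with OSM, each with an IL-6 count nearer to vehicle.

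At the other end stood Mrps2 (ENSMUSG00000035772, chr2:28358078-28361190, plus strand), a small-subunit protein with a bacterial counterpart, with 1397 counts with vehicle, 1275 with IL-6 and 1512 with OSM. Once scaled for library size, its value was -0.13 (-0.23 to -0.02), the 1 lower call, which was lost under upper-quartile scaling. Mrpl1 had 1083, 1089 and 1259 counts and a value of -0.02 (-0.14 to 0.09). Mrpl47 had 732, 804 and 878 counts and a value of 0.02 (-0.12 to 0.16). Mrpl49 had 1041, 943 and 1301 counts and a value of 0.08 (-0.04 to 0.20). These 3 large-subunit genes, together with Mrpl19 at 0.15, were within counting error, though Mrpl19 was called higher with DESeq2 size factors or upper-quartile factors. Mrpl3, the next of the low group, was higher at 0.11 (0.03 to 0.19). Scaling by total counts alone left 68 members higher, with Mrpl3, Mrpl39, Mrpl44 and Mrps10 then within counting error.

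The proximal promoters of the 5 members with the highest fold changes and of Mrps2, the lowest, are printed here because the family moved together and the reader can see what its start regions look like. They are RefSeq sequences of build GRCm38.p6, with 250 bases before and 50 after the start, written 5′ to 3′ on the strand of the gene, so their positions differ from the GRCm39 ones above. Capitals mark matches to the motifs spelled out in the next paragraph. The positions are chr14:54426659-54426958 (plus) for Mrpl52, chr5:31613701-31614000 (plus) for Mrpl33, chr7:78782881-78783180 (plus) for Mrps11, chr14:57825989-57826288 (plus) for Mrpl57, chr11:5707652-5707951 (minus) for Mrps24 and chr2:28467816-28468115 (plus) for Mrps2.
Mrpl52: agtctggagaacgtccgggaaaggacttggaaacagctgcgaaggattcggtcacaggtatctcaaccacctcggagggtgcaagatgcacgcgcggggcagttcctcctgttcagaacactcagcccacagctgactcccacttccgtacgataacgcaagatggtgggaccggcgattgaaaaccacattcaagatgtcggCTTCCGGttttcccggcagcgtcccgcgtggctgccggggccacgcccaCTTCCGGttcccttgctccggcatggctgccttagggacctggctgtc
Mrpl33: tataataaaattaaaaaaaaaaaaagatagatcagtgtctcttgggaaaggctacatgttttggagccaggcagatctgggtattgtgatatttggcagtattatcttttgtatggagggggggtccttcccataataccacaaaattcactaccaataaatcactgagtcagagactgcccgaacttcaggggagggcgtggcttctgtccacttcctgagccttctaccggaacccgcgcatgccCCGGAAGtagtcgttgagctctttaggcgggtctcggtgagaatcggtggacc
Mrps11: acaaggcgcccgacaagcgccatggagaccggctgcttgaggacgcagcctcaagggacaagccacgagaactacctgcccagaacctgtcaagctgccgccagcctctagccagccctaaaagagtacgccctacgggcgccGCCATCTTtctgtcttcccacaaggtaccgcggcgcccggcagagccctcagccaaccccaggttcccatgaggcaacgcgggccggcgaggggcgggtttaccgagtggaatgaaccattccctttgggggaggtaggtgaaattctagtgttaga
Mrpl57: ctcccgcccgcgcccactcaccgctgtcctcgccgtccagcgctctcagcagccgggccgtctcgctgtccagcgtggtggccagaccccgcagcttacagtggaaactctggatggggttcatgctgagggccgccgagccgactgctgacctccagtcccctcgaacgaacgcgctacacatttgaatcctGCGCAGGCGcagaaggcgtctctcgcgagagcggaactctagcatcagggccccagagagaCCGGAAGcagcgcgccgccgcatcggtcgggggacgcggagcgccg
Mrps24: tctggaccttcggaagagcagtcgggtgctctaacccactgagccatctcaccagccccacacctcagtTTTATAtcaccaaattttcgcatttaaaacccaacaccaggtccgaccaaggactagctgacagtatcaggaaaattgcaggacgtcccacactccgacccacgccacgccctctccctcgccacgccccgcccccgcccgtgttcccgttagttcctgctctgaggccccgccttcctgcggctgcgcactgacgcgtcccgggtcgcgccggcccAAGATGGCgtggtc
Mrps2: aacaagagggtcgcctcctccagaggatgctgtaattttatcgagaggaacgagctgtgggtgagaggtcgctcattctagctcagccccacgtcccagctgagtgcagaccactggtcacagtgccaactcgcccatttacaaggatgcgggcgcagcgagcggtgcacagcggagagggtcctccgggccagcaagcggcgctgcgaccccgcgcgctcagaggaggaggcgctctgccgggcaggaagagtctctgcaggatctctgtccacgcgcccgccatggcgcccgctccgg

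Of the 78 members, 69 matched a RefSeq promoter entry by symbol, of which 3 had more than 1 and the first was used. Mrpl4, Mrpl13, Mrpl15, Mrpl19, Mrpl38, Mrpl54, Mrps28, Mrps34 and Mrps35 had no entry. The 7 motifs, searched on both strands, were those named for NRF1 (GCGCANGCG), for ETS factors (CCGGAAG), for YY1 (AAGATGGC), for CREB (the CRE, TGACGTCA), for E-box factors (CACGTG) and for STAT factors (TTCNNNGAA), and the TATA box (TATAAA). No motif holds another, though matches of different motifs can share bases. NRF1 and the ETS factor GABP are known regulators of nuclear genes for mitochondrial proteins, and YY1 motifs are common at the starts of ribosomal and mitochondrial genes. A match describes letters in the window and shows neither binding nor function.

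The ETS motif was in 25 of the 69 member promoters (36.2%), against 18.1% of the 10058 promoters of compared protein-coding genes and 9.12% of all 27025 promoters. The YY1 motif was in 12 (17.4%, against 4.69% and 2.88%). The NRF1 motif was in 16 (23.2%, against 14.0% and 6.47%). All 3 shares were thus higher among the members than in both wider sets. The STAT motif was in 6 (8.70%, against 6.93% and 8.47%), and the CRE in 2 (2.90%, against 3.27% and 1.88%). The E-box was in 5 (7.25%, against 10.2% and 7.24%) and the TATA box in 4 (5.80%, against 7.05% and 14.2%). Those 4 motifs were about as frequent among the members as among other compared genes.

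At least 1 of the NRF1, ETS and YY1 motifs was present in all but 26 of the 69 member promoters. That left 37.7% without any, against 67.8% of compared protein-coding genes, while 33 members had 1 of the 3 and 10 had 2. Fold changes with OSM are given by motif as a description, with no test, each beside the median excess over genes of similar length. Members with the ETS motif had a median of 0.50 (excess 0.21) and those without it 0.38 (0.13). For the NRF1 motif the medians were 0.36 with (0.07) and 0.47 without (0.14). For the YY1 motif they were 0.43 with (0.29) and 0.46 without (0.12). The STAT medians were 0.39 with (0.29) and 0.47 without (0.13). In the 2 members with the CRE the median was 0.18 (-0.10), and 0.47 in those without (0.14). For the E-box it was 0.52 with (0.13) and 0.45 without (0.14), and for the TATA box 0.52 with (0.22) and 0.45 without (0.14). For the YY1, STAT and E-box motifs the medians and the excesses thus went opposite ways. Several of these groups hold few members. Among the printed promoters, Mrpl52 held the ETS motif at 2 places, Mrpl33 once, Mrpl57 the NRF1 and ETS motifs, Mrps11 the YY1 motif, and Mrps24 the YY1 and TATA motifs. Mrps2 held none of the 7. The promoters of the members had a median GC content of 58.3% and 21 CpG dinucleotides, against 61.0% and 21 for compared genes and 52.7% and 7 for all promoters. The plot of motif shares sets the 3 groups of promoters beside each other.

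**Figure D3:**
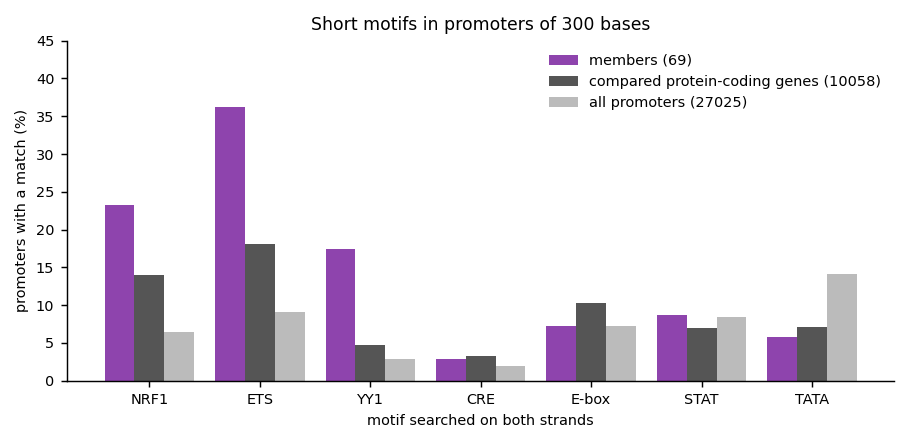
Percent of 300-base promoters holding each of 7 motifs on either strand, for 69 members, 10058 compared protein-coding genes and all 27025 promoters in the table. The ETS, NRF1 and YY1 motifs were in 36.2%, 23.2% and 17.4% of the members' promoters.

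Gene length moved with the OSM fold change across protein-coding genes, and most members are shorter than the median of these. Their median summed exon length was 2394 bases (607 to 8631), against 4525.5 for compared protein-coding genes. When compared protein-coding genes were split into 8 equal groups by length, their median log2 fold change with OSM ran from 0.45 in the shortest (204 to 2018 bases) to -0.54 in the longest (from 9314 bases), which held no member. Across genes, Spearman's rho of fold change with length was -0.40 over 12508 protein-coding genes and -0.35 over the 77 members. Genes of 1 library pair are not independent replicates, so no p is given.

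Each member was therefore set against all other compared protein-coding genes with a summed exon length within 10% of its own. The excess of each member over the median of such genes had a median of 0.14, with 58 members above and 19 below. In the median, a member lay above 65.4% of genes of its length. After subtracting the median of genes of similar length from each interval, 44 of 77 members were higher and 8 were lower, compared with 72 and 1 as scaled. The same subtraction in all 12704 protein-coding genes it could be applied to left 33.8% higher and 33.6% lower. Set against genes of their own length, fewer members were thus higher than as scaled.

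The excess over similar-length genes was uneven along the length scale. Among the 31 members in the shortest group the median was 0.52, beside 0.45 for all protein-coding genes of that group, with 20 members above their similar-length median and 11 below. Among the 12 in the next group (2019 to 2871 bases) it was 0.40, beside 0.26, with 7 above and 5 below. In both groups members thus lay on both sides of genes of their length. From 2872 to 3658 bases, 8 of 9 members lay above, with a median of 0.45 beside 0.16. From 3659 to 4525 bases, 7 of 9 lay above (0.38 beside 0.06). All 16 members longer than that lay above, with medians of 0.34 beside -0.05 (3 members), 0.33 beside -0.11 (6) and 0.50 beside -0.25 (7). The medians of longer members thus stayed above 0, where those of other long genes were below 0. Differences between length groups were not tested, and length here is summed exon length. Among the 16, Mrpl33, Mrpl23, Mrpl13, Mrps10 and Mrps9 have canonical transcripts of 732, 692, 1223, 1449 and 1893 bases, and no split by canonical length was made. The plot of fold change against length shows this separation.

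**Figure D4:**
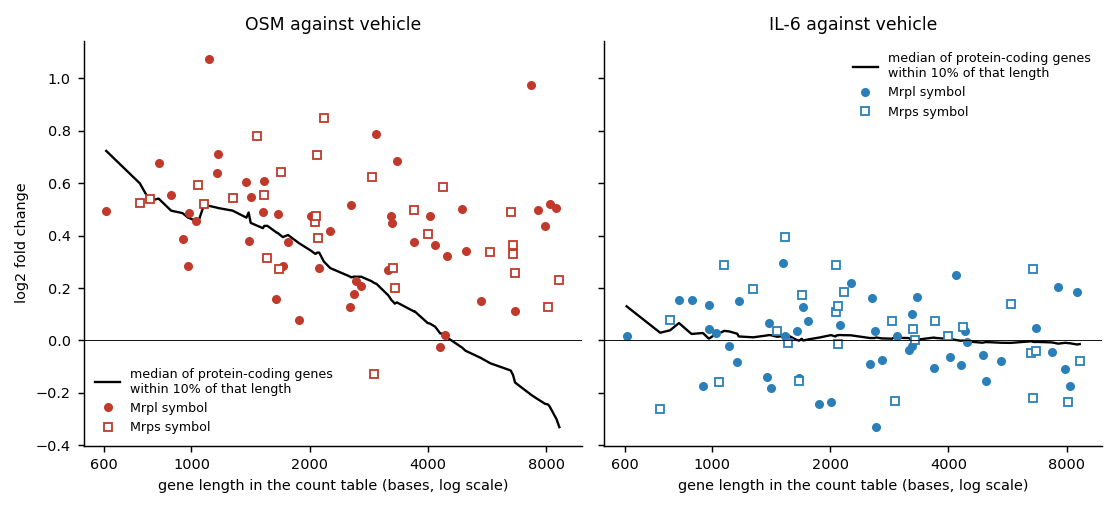
Log2 fold change (vertical axis) against summed exon length in bases (horizontal axis, log scale) for the 77 members (circles for Mrpl and squares for Mrps symbols), with a line for the median of compared protein-coding genes of similar length, for OSM against vehicle and IL-6 against vehicle. With OSM the line fell with length (medians of 0.45 in the shortest length group and -0.25 in the longest one that held members), while the medians of the members in those groups stayed between 0.33 and 0.52.

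Mrpl33 showed the largest excess over genes of its length, at 1.18. Its summed exon length is 7326 bases, while its canonical transcript has 732, and the part of this mismatch in the excess was not tested. With canonical transcript length in its place, chosen after the data were seen, the median excess of the members was 0.12, and with canonical length and GC content together it was 0.16. Mrpl52, at 1109 bases, exceeded its similar-length median by 0.56, Mrps11 by 0.55, Mrpl57 by 0.57 and Mrps24 by 0.34. Mrps2 lay below by 0.35.

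Members grouped by place in the ribosome were all higher with OSM as scaled, where 33.4% of all genes were. Their excess over genes of similar length varied by group. Of the stalk proteins with counts, Mrpl10 (0.28), Mrpl11 (0.45) and Mrpl12 were all higher, with a median excess of 0.17. Mrpl12 had 3521 counts with vehicle, 3822 with IL-6 and 6348 with OSM, giving 0.61 (0.55 to 0.67). It also binds the mitochondrial RNA polymerase. Around the exit of the peptide tunnel all 4 genes were higher, with a median of 0.35, but the excess over genes of similar length was 0.04 (2 above and 2 below). These were Mrpl22 (0.28), Mrpl23 (0.50), Mrpl24 (0.42) and Mrpl45 (0.18), the last of which tethers the ribosome to the inner membrane.

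In the central protuberance, which contacts the small subunit and the tRNAs, all 8 genes were higher (33.4% of all genes were). Their median was 0.50, with an excess of 0.06 (6 above and 2 below). They ran from Mrpl40 and Mrpl18 at 0.38 over Mrpl55 (0.46), Mrpl27 (0.49), Mrpl48 (0.52), Mrpl38 (0.52) and Mrpl46 (0.55) to Mrpl58 (0.68), which also acts as a peptidyl-tRNA hydrolase that rescues stalled ribosomes. Around the decoding centre and the mRNA channel, Mrps5 (0.36), Mrps7 (0.47), Mrps12 (0.59) and Mrps11 (0.85) were all higher, with a median of 0.53 and an excess of 0.32 (4 above and 0 below). In the median, the tunnel exit and the central protuberance thus lay close to genes of their length, while single members differed. Their differences ran from -0.18 (Mrpl22) to 0.53 (Mrpl23) at the exit and from -0.11 (Mrpl18) to 0.77 (Mrpl48) in the protuberance. Differences between groups were not tested.

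The members linked to heart muscle disease were among those higher. Variants of the human counterparts of Mrpl3, Mrpl44, Mrps14 and Mrps22 cause mitochondrial disease with hypertrophic cardiomyopathy. All 4 were higher with OSM (33.4% of all genes were), with a median of 0.22, though Mrpl3 and Mrpl44 not under scaling by total counts alone. Their median excess over genes of similar length was 0.20, with 3 above and 1 below. Mrpl3 had 2225 counts with vehicle, 2463 with IL-6 and 2846 with OSM. Mrpl44 had 1285, 1411 and 1695 counts (log2 fold change 0.16), Mrps14 had 1149, 1270 and 1646 (0.28), and Mrps22 had 701, 760 and 1099 (0.41). With IL-6 none of the 4 was beyond counting error (all genes, 19.6% higher and 19.1% lower), with a median of 0.04.

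Members of both evolutionary origins were mostly higher with OSM, where 33.4% of all genes compared were higher and 33.1% were lower. Of the 46 members with a counterpart in the bacterial ribosome, 42 were higher with OSM and 1 was lower, with a median of 0.47 and an excess over similar-length genes of 0.14. Of 30 compared members specific to mitochondria, 29 were higher and none was lower, with a median of 0.40 and an excess of 0.20. With IL-6 the former had 13 higher and 10 lower, and the latter 6 and 6, near the shares of all genes compared with IL-6 (19.6% higher and 19.1% lower).

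With IL-6 the family stayed close to vehicle. Of 77 members, 20 were higher, 16 were lower and 41 were within counting error, which is 26.0% higher where 19.6% of all 15472 genes compared were higher and 19.1% were lower. None passed 2-fold, compared with 3.51% of all genes. The median log2 fold change was 0.02 (interquartile range -0.08 to 0.13), with values from -0.03 to 0.04 over the alternatives, so its sign was not fixed. The summed counts gave 0.00 (-0.01 to 0.01). The median difference from genes of similar length was 0.01, with 42 members above and 35 below, and no length trend like that with OSM was seen (rho -0.05 over 12475 protein-coding genes). The share near the background in both directions is therefore no result about the family.

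The highest IL-6 value was that of Mrps6, a small-subunit protein with a bacterial counterpart, with 449 counts with vehicle and 633 with IL-6, giving 0.40 (0.22 to 0.57). With OSM it had 780 counts. Mrpl43 (0.30), Mrps34 (0.29), Mrps18c (0.29) and Mrps5 (0.27) followed, and all 4 were also higher with OSM. The lowest was Mrpl4, of the wall of the peptide exit tunnel, with 2341 and 1995 counts, at -0.33 (-0.42 to -0.24), which had 3236 counts with OSM and was higher there at 0.23. Mrps21 was lower with IL-6 at -0.26 (-0.36 to -0.16), from 1685 to 1506 counts, and higher with OSM at 0.52, with 2866. Mrpl49 (-0.24), Mrps10 (-0.24) and Mrpl21 (-0.23) were lower as well. Some genes thus lay on opposite sides of vehicle in the 2 cytokine libraries, which share the vehicle library.

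By region the lists are small, and IL-6 calls are given as values only. In the central protuberance Mrpl38 and Mrpl58 were higher, at 0.16 and 0.17, and Mrpl46 and Mrpl48 were lower, at -0.18 and -0.17. At the decoding centre Mrps5 and Mrps7 (0.11) were higher and Mrps12 (-0.16) was lower. Mrpl10 (0.13) of the stalk and Mrpl24 (0.22) of the tunnel exit were the only genes called in their groups. Mrpl genes had 12 higher and 10 lower of 48 and Mrps genes 8 and 6 of 29, shares near the 19.6% and 19.1% of all genes.

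The OSM and IL-6 libraries could also be compared with each other, a comparison that shares a library with each of the others. Of 77 members, 70 were higher with OSM than with IL-6, none was lower and 7 were within counting error. That is 90.9%, where 33.2% of all 15544 genes compared were higher and 33.2% were lower. None passed 2-fold, compared with 9.66% of all genes. The median was 0.39 (interquartile range 0.23 to 0.55) and the median difference from similar-length genes 0.19, with 53 members above and 24 below. After subtracting the similar-length median, 43 were higher and 9 were lower, where 33.7% and 33.9% of 12720 protein-coding genes were. Scaling by total counts alone left 61 higher, while DESeq2 size factors gave 73 and upper-quartile factors 74.

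Against IL-6, Mrpl52 (1.10, 0.97 to 1.22) and Mrpl33 (1.02, 0.91 to 1.13) again had the highest values. Mrps21 (0.79), Mrpl57 (0.77) and Mrps12 (0.75) came next. Mrpl47 (-0.01), Mrpl3 (0.07), Mrpl1 (0.07), Mrps5 (0.09) and Mrps2 (0.10) were the lowest, each within counting error, as were Mrpl35 (0.11) and Mrps18c (0.23). With DESeq2 size factors or upper-quartile factors, Mrps2, Mrpl35 and Mrps18c were called higher instead, as was Mrpl3 with upper-quartile factors. Mrpl genes had 44 higher of 48 and Mrps genes 26 of 29.

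Other gene groups of the same pathway place these values, where 33.4% of all genes compared with OSM were higher and 33.1% were lower. The cytosolic ribosomal protein genes, which build the ribosome that makes the nuclear-encoded proteins, had 79 higher and none lower of 79 compared (82 in the table), with a median of 0.63 with OSM and 0.30 above genes of similar length. The 2 past 2-fold were Rps27 (1194 counts with vehicle, 1492 with IL-6 and 4199 with OSM) and Rps10 (13, 20 and 72), named after their values were seen. Nuclear genes of the respiratory chain and ATP synthase had 76 higher and 2 lower of 80 compared (81 in the table), with a median of 0.61 and 0.17 above similar-length genes. The 2 lower ones, also named after the values were seen, were Ndufs1 (-0.18) and Sdha (-0.03), the latter within counting error under upper-quartile scaling. With IL-6 both groups had a median of 0.02. The mitochondrial ribosomal protein genes were thus 1 of 3 groups of nuclear genes for ribosomes and respiration that were higher with OSM.

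The mRNAs that the mitochondrial ribosome translates mostly went the other way against vehicle. Of 13 mitochondrially encoded mRNAs, 2 were higher with OSM (mt-Co3 at 0.77 and mt-Nd3 at 0.32) and 10 were lower (all genes, 33.4% and 33.1%). Their median was -0.28. Where a difference from similar-length genes could be computed, its median was -0.79, with 2 above and 9 below. The 2 lower past 2-fold were mt-Nd5 at -1.24 and mt-Nd4l at -2.17, with mt-Nd4l at 1442 counts with vehicle, 1947 with IL-6 and 380 with OSM. With IL-6 the median was -0.14, with 3 higher and 10 lower (all genes, 19.6% and 19.1%). For OSM against IL-6, 5 were higher and 8 were lower (all genes, 33.2% and 33.2%), with a median of -0.10. The ribosomal RNAs of the particle, mt-Rnr1 and mt-Rnr2, had log2 fold changes with OSM of 0.26 and 0.08. Libraries were made from poly(A)-selected RNA, so these counts cover only rRNA that passed that selection.

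Proteins of the mitochondrial ribosome that carry other names mostly moved with the family. With OSM, 4 of 5 were higher (33.4% of all genes were), with a median excess of 0.22 over similar-length genes. The higher ones were Aurkaip1 (0.62), Chchd1 (0.56), Gadd45gip1 (0.52) and Dap3 (0.26). Ptcd3, which lies near the mRNA entry of the small subunit, was lower at -0.39 (-0.45 to -0.33), with 4190 counts with vehicle, 4369 with IL-6 and 3783 with OSM. With IL-6, 1 was higher and 1 was lower (all genes, 19.6% and 19.1%), with a median of -0.04. Dap3 was higher at 0.17. Chchd1 was lower at -0.14, but within counting error under total-count scaling.

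Genes for ribosome assembly had 17 higher and 3 lower of 28 with OSM (all genes, 33.4% and 33.1%), with a median of 0.23 and an excess over similar-length genes of 0.11 (16 above and 12 below). Gtpbp6, a GTPase of ribosome recycling and assembly, had 141 counts with vehicle, 174 with IL-6 and 358 with OSM, at 1.10 (0.82 to 1.39). Rpusd3, a pseudouridine synthase family protein, had 58, 111 and 129 counts (0.91), and Mrm3, an rRNA methyltransferase, had 661, 631 and 1196 (0.61). The 3 lower genes were the GTPases Gtpbp10 (-0.44) and Gtpbp8 (-0.32) and the rRNA methyltransferase Mettl15 (-0.32). With IL-6, where 19.6% and 19.1% of all genes were called, the group had 10 higher and 3 lower (C1qbp, Rbfa and, except under total-count and upper-quartile scaling, Mrm3), with a median of 0.10.

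Soluble factors of mitochondrial translation were mixed. With OSM, 5 were higher and 6 were lower of 14 compared (15 in the table), shares near those of all genes (33.4% and 33.1%), with a median of -0.05 and an excess over similar-length genes of 0.06 (7 above and 7 below). Tsfm, the exchange factor of elongation factor Tu, was higher at 0.55, as were Mtfmt, which formylates the initiator tRNA (0.48), and the release factor Mtrf1l (0.44). The remaining higher ones were Tufm (0.32) and Mrrf (0.27). Lower were the release factor Mtrf1 (-0.62), the initiation factor Mtif2 (-0.39) and the elongation factor Gfm1 (-0.37), the last with 6535, 6821 and 5991 counts. Slirp, an RNA-binding partner of Lrpprc, had 0 counts in every library. With IL-6, 3 were higher and 2 were lower (all genes, 19.6% and 19.1%), with a median of -0.01. Higher were Mtfmt (0.74), Mtrf1l (0.26) and Gfm2 (0.09), and lower, except under total-count scaling, were Mtrf1 (-0.19) and Mrrf (-0.12).

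Mitochondrial aminoacyl-tRNA synthetases, which are longer genes, had 9 higher and 4 lower of 17 with OSM and a median of 0.22, where 33.4% of all genes were higher and 33.1% lower. Their excess over genes of similar length was 0.15, with 14 above and 3 below. The highest were Cars2 (0.54), Rars2 (0.47) and Wars2 (0.31, within counting error under total-count scaling). The lower ones were Iars2 (4981 counts with vehicle, 5175 with IL-6 and 3782 with OSM, -0.64), Lars2 (11585, 8183 and 10722, -0.35), Nars2 (-0.32) and Vars2 (-0.18). With IL-6 the group had 4 higher and 5 lower (all genes, 19.6% and 19.1%), with a median of 0.00. Lars2, Pars2, Sars2, Ears2 and Tars2 were lower. Lars2 was the lowest of them with IL-6, at -0.60.

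Regulators of mitochondrial biogenesis and of mitochondrial DNA had 4 higher and 5 lower of 13 with OSM, shares near the 33.4% and 33.1% of all genes, with a median of -0.15 and a difference from similar-length genes of -0.15 (5 above and 8 below). Ppargc1a, a coactivator that drives mitochondrial biogenesis in heart and muscle, had 1035 counts with vehicle, 937 with IL-6 and 351 with OSM. It was lower past 2-fold at -1.80 (-1.98 to -1.63), the only gene of these 5 lists beyond that fold. Nrf1 (0.29), Tfam, which packages mitochondrial DNA (0.23), the transcription elongation factor Tefm (0.22) and the helicase Twnk (0.13) were higher, though Tefm and Twnk not under total-count scaling. Gabpa, an ETS factor (-0.42), Tfb2m, a mitochondrial transcription factor (-0.36), Polg (-0.17) and Polrmt (-0.15) were lower, though Polrmt not under upper-quartile scaling. With IL-6, 1 was higher and 3 were lower (all genes, 19.6% and 19.1%), with a median of -0.02. Higher was Twnk (0.28), and lower were Yy1 (-0.18), Ppargc1a (-0.24) and Polg2 (-0.46). The plot of gene groups sets these medians beside that of the family.

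**Figure D5:**
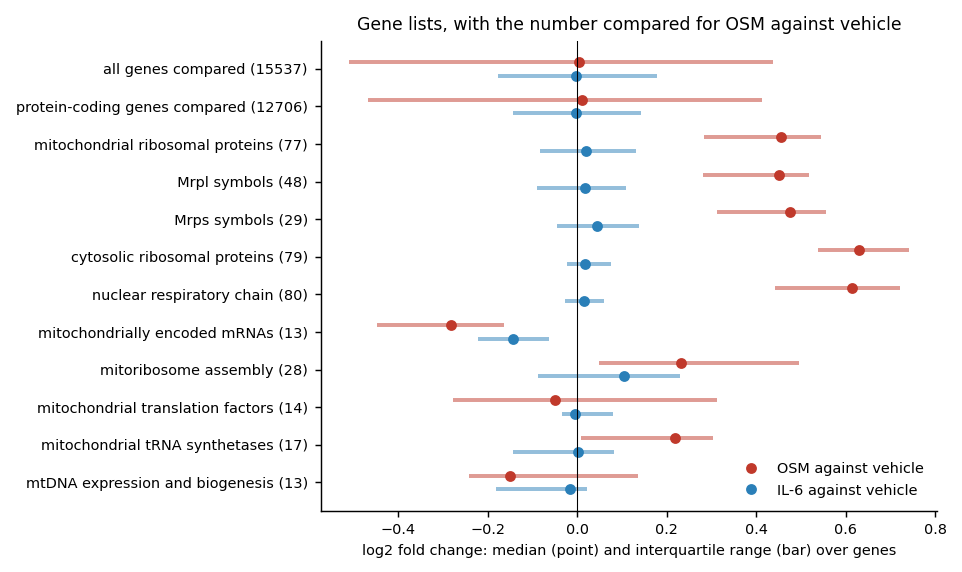
Median (point) and interquartile range (bar) of log2 fold change for the mitochondrial ribosomal protein genes and related gene groups, for OSM against vehicle and IL-6 against vehicle. With OSM the medians ran from -0.28 for the mitochondrially encoded mRNAs to 0.63 for the cytosolic ribosomal protein genes, with 0.46 for the mitochondrial ribosomal protein genes.

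Most members had shorter transcripts than other compared genes, a feature that the naming rule did not use. Their canonical transcripts had a median length of 1812 bases and 5 exons (2 to 12), against 3511.5 bases and 9 exons for compared protein-coding genes, at a GC content of 49.5% against 50.4%. They lay on 17 chromosomes, with 11 on chromosome 11, 8 on chromosome 17, 7 on chromosome 6 and 6 on chromosome 7. Mrps11 and Mrpl46 lie head to head on chromosome 7, with promoter windows that share 141 bases. Both were higher with OSM, with 812 counts with vehicle, 768 with IL-6 and 1402 with OSM for Mrpl46 (0.55). With IL-6 the values were 0.19 (-0.04 to 0.41) for Mrps11 and -0.18 (-0.32 to -0.04) for Mrpl46.

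Many members share exonic bases with a neighbour, mostly on the opposite strand. In the GENCODE M39 annotation 60 of 78 members overlapped another gene, and the sources do not say whether counting used the strand, so counts of overlapped genes are uncertain. The 18 members without overlap were all higher with OSM (33.4% of all genes were). They had a median of 0.41 and a median excess of 0.35 over genes of similar length. Their median summed exon length was 3455.5 bases. Of the 59 compared members with overlap, which had a median length of 2089 bases, 54 were higher and 1 was lower, with a median of 0.47 and an excess of 0.13. As scaled, members whose exons no annotated neighbour shares were thus also higher. The members with and without overlap differ in length, and the part of overlap in the shift was not tested.

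More than 50% of exonic bases were overlapped in 6 members, singled out after their values were seen. These were Mrpl54 (94.4%), Mrps34 (86.0%), Mrps18c (84.3%), Mrpl34 (81.4%), Mrps7 (57.8%) and Mrpl43 (55.3%). The main neighbour of Mrpl54, Matk, had 12 counts with vehicle, 6 with IL-6 and 19 with OSM. Mrps34 had 469, 614 and 758 counts. Its neighbours were the opposite-strand Mapk8ip3 (1649, 1952 and 1730) and Eme2 (91, 67 and 57) and the same-strand Nme3 with 0 in every library. Mrps18c had 198, 259 and 336 counts beside the opposite-strand Abraxas1 with 390, 488 and 491 and Helq with 143, 98 and 66. Mrps7 had 1882, 2176 and 3091 counts beside the opposite-strand Gga3 with 585, 691 and 875 and Mif4gd with 384, 401 and 548. Mrpl43 had 320, 421 and 531 counts and overlaps Twnk (1399, 1818 and 1816) and Sema4g (8, 18 and 2). The part of reads from neighbours in the counts of these members was not tested. Mrpl33 overlaps the opposite-strand lncRNA AI839979, which had 162, 225 and 450 counts, over part of the 5.76% of its exonic bases that were shared.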

How the data were processed

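RNAseq was done on 3 libraries of wild-type ACMs, 1 per condition. Per the labels, the authors trimmed reads with fastp, aligned them with HISAT2 2.2.1 to mm39 and made the deposited count per gene with featureCounts 2.0.6. The study's methods name other versions of featureCounts and edgeR. The authors also deposited FPKM per gene, which was checked to be the count over summed exon length with 1 constant per library. The tables were joined by gene identifier.

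Pairs of libraries were scaled with edgeR 4.0.16 (TMM, R 4.3.3), and each gene whose counts in the pair summed to 10 or more was compared by log2 ratio with a 95% Clopper-Pearson interval (Python 3.11.15, scipy 1.17.1, numpy 2.4.6, pandas 2.3.3). No test across replicates was possible. Figures used matplotlib 3.10.9. Overlap and canonical transcripts came from GENCODE M39, which held 56017 of 56748 identifiers. The interval code was tested on simulated data. Alternatives were DESeq2 1.42.0 size factors, total counts, upper-quartile factors, other count filters, fold thresholds, length windows, the deposited FPKM and edgeR's exact test at a variability between replicates set by assumption (BCV 0.2, adjusted p and 2-fold).

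Named members were, in each subunit by symbol (Mrpl or Mrps), the 5 with the highest and the 5 with the lowest FPKM with vehicle, and in each comparison the 5 with the highest and the 5 with the lowest log2 fold change, every member past 2-fold, and the members of the cardiomyopathy, stalk, exit tunnel, central protuberance and decoding lists. From the lists of ribosome proteins with other names, assembly, translation factors, synthetases and biogenesis, genes past 2-fold and up to 3 with the highest and 3 with the lowest value with OSM were named, beside short lists of called genes. The members and lists were chosen with earlier results of these data known.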

Additional observations from a re-analysis of the deposited data

Results flagged for a closer look

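Processed pseudogenes named after members lie outside the naming rule, and their summed counts lay above the limit that a count of 0 allows. Their 6 entries summed to 134 counts with vehicle, 154 with IL-6 and 188 with OSM, small beside the 97179, 104303 and 154002 counts of the members. Mrpl23-ps1 had 36, 85 and 59 counts, Mrps36-ps2 had 3, 3 and 12, and Mrps36-ps3 had 0 in every library.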

How the results depend on the processing

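No paired analysis was possible because each condition had 1 library, and the main results come from no test. Of 111 values of 15 results under alternatives, 100 stayed near the main value and 11 moved further. For counts, near meant equal to or within 1.5 times the main count. For medians it meant within the median half-width of a single member's counting interval, which is not the counting error of a median over members. The difference from similar-length genes could not move with the scaling, which shifts all genes alike, so its values there are no check. Nor could the count filters change which members were compared. Mrps18c, the lowest, had 198, 259 and 336 counts with vehicle, IL-6 and OSM, and Mrpl53 had 0 in each. Numbers of members called and median fold changes were the same under those filters and are no check either. The 100 values that stayed near include all of these. The IL-6 median, near 0, changed sign. For OSM against vehicle, no member passed 2-fold, but 6 passed 1.5-fold and 1 passed 2-fold by point estimate alone, both looser by construction. edgeR's exact test at an assumed BCV of 0.2 put 0 members past 2-fold in each comparison. Less the median of similar-length genes, 44 were higher (72 as scaled) and 8 were lower (1 as scaled). With upper-quartile factors 0 were lower. For OSM against IL-6 the same alternatives gave 10 and 2 in place of 0 past 2-fold, and 43 higher (70 as scaled) and 9 lower (0 as scaled). Among members without exonic overlap, the median difference from similar-length genes was 0.35 in place of 0.14 for OSM against vehicle and 0.31 in place of 0.19 for OSM against IL-6. The cause was not tested. Over all alternatives the median log2 fold change ran from 0.39 to 0.49 for OSM against vehicle, from -0.03 to 0.04 for IL-6 against vehicle and from 0.31 to 0.41 for OSM against IL-6. Canonical length, canonical length with GC content, and leaving out overlapped members were chosen after seeing the data. With 1 library per condition, the spread between cultures is unknown, and counting error gave member intervals a median half-width of 0.12 with OSM and 0.13 with IL-6 against vehicle.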
